A study of Mus musculus with 2 samples.

Results

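The S phase genes described here are 33 listed genes that act while DNA is copied or prepare for it, other than the subunits of the MCM helicase. They were taken from the list by symbol, and all 33 were found among the 32285 genes of both count matrices. Transcripts of single immune cells from mouse lymph nodes were measured in droplets, by a method that counts their 3′ ends with unique molecular identifiers (UMIs). One library came from CKO mice, labelled RPA1 conditional knockout, and 1 from wild-type (WT) mice, both on a C57BL/6 strain background. The labels name neither the recombinase line nor the cells in which Rpa1 was to be deleted, and the sources used here do not give the number of mice or of nodes. With 1 library per genotype no test was possible: every interval in brackets is an exact 95% interval that covers counting error only, and nothing here can be set against variation between animals.

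A dividing cell licenses its replication origins in G1 and fires them in S phase. Cdc6 and Cdt1 load the helicase on DNA, Cdc45 and the GINS proteins switch it on, and polymerases held by the Pcna ring then copy the strands. Most of these genes are induced by E2F transcription factors as a cell passes from G1 into S, and resting lymphocytes of a lymph node express many of them at low levels. Replication protein A, whose largest subunit is Rpa1, coats the single-stranded DNA exposed at the same forks.

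Promoter sequence is shown for 5 members to display the letters that E2F factors are known to bind: 4 with a match and Rfc1 without one, chosen after the matches were seen. Each stretch runs from 150 bases before to 30 bases after the gene start in RefSeq on GRCm38.p6, written 5′ to 3′ on the strand of the gene, and the capitals mark an exact match to TTTCCCGC or TTTGGCGC on either strand. The stretches lie at chr9:65890173-65890352 on the plus strand for Pclaf, chr11:98908001-98908180 on the plus strand for Cdc6, chrX:93632126-93632305 on the minus strand for Pola1, chr8:95633409-95633588 on the plus strand for Gins3 and chr5:65335610-65335789 on the minus strand for Rfc1.
Pclaf: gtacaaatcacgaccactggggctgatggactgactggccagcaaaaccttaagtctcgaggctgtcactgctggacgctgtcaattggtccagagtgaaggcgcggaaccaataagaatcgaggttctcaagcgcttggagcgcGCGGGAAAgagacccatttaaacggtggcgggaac
Cdc6: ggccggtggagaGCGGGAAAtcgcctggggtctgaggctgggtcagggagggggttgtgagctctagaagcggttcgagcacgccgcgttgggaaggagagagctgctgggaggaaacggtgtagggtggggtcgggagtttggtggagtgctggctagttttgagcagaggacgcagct
Pola1: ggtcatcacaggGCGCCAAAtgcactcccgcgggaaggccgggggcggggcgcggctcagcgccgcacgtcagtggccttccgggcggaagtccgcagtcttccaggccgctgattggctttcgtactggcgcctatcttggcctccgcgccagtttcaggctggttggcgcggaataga
Gins3: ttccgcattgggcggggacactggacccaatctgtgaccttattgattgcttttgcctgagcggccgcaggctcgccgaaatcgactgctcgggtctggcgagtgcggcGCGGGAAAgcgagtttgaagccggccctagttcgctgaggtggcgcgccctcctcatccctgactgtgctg
Rfc1: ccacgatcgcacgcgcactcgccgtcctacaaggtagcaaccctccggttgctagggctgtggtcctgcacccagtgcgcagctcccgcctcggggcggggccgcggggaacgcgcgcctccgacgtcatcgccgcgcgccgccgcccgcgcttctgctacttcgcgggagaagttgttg

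By symbol, 26 of the 33 members were matched in the RefSeq promoter table, the others being Rfc2, Ccne2, Gins1, Gins2, Gins4, Prim2 and Pole. In windows of 250 bases before to 50 bases after the start, 7 of the 26 (26.9%) held one of the motifs: Pclaf, Cdc6, Pola1, Rfc3, Pold1, Gins3 and Cdt1. Over all genes of the table, 486 of 27025 (1.80%) held one. Each of the 7 had a single match, so no matches overlapped. A match is a description of letters and not a measured binding site. Of the 8 matched members whose UMIs lay most in cycling T cells, 2 held a motif, against 3 of the 8 whose UMIs lay there least.

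Sequencing gave 76200586 UMIs over 13754 barcodes in CKO (median 4549 per barcode) and 84813609 UMIs over 12769 barcodes in WT (median 5984). Of these, 13316 CKO and 12463 WT cells were kept. Cells were gated on raw UMIs. T gate cells (at least 2 UMIs of Cd3d, Cd3e and Cd3g, no Cd79a) numbered 3555 in CKO and 8189 in WT, and B gate cells (at least 2 UMIs of Cd79a, no Cd3e) numbered 7830 in CKO and 2825 in WT. A cell counted as cycling with at least 2 UMIs of Mki67 and Top2a, genes of the proliferating cell that the member list does not hold. Cycling cells numbered 101 CKO and 227 WT T cells, and 90 CKO and 56 WT B cells. The libraries shared 56 barcodes, of which 1 was a cycling T cell in each library and none a cycling B cell. Rpa1, the targeted gene, stood at 26.5 counts per 1000000 UMIs of the gate (CPM) in CKO T cells and 40.3 CPM in WT T cells. The ratio of CKO to WT, the direction of every ratio here, was 0.658 (0.600 to 0.720). In B cells Rpa1 stood at 35.8 CPM in CKO and 40.4 CPM in WT, a ratio of 0.884 (0.799 to 0.979). The sources used here do not say which exons were deleted, and 3′ counts from outside the deleted part check nothing.

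In cycling T cells the S phase genes were higher in CKO than in WT as a group. Their summed level was 4409 CPM (4303 to 4517) in CKO and 2710 CPM (2652 to 2769) in WT, a ratio of 1.63 (1.57 to 1.68). Each of the 33 members had a ratio above 1, and for 31 the interval lay above 1. These intervals do not cover variation between cells. Cells with 10 or more UMIs of Mki67 and Top2a held most of the S phase UMIs. They were 38 of 101 cells with 4975 of 6533 UMIs in CKO, and 52 of 227 cells with 6030 of 8295 UMIs in WT. A difference was called where CKO and WT were at least 1.5-fold apart, among genes with at least 20 UMIs over both libraries: 19 members were called higher and 0 lower. Over all 9277 genes at that floor in cycling T cells, 10.9% were called higher and 10.1% lower. The median log2 ratio of the members was 0.72, beside 0.05 over all those genes. Without cells over 20000 UMIs, 30 members were called, and with a stricter cycling gate of at least 5 UMIs of Mki67 and Top2a, 7 were called; both alternatives were chosen after seeing the data. Markers of other cells moved with this difference: 6 B cell markers summed to 247 CPM (366 UMIs) in CKO and 36.9 CPM (113 UMIs) in WT cycling T cells. Of these, Igkc had 322 UMIs in CKO and 51 in WT, Cd79b had 41 UMIs in CKO and 47 in WT, and Ms4a1, Pax5 and Cd79a, on which the gate was set, were at 0 in CKO. The 6 T cell markers summed to 3912 CPM in CKO and 5134 CPM in WT. The part of these cells or transcripts in the difference was not tested.

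**Figure D1:**
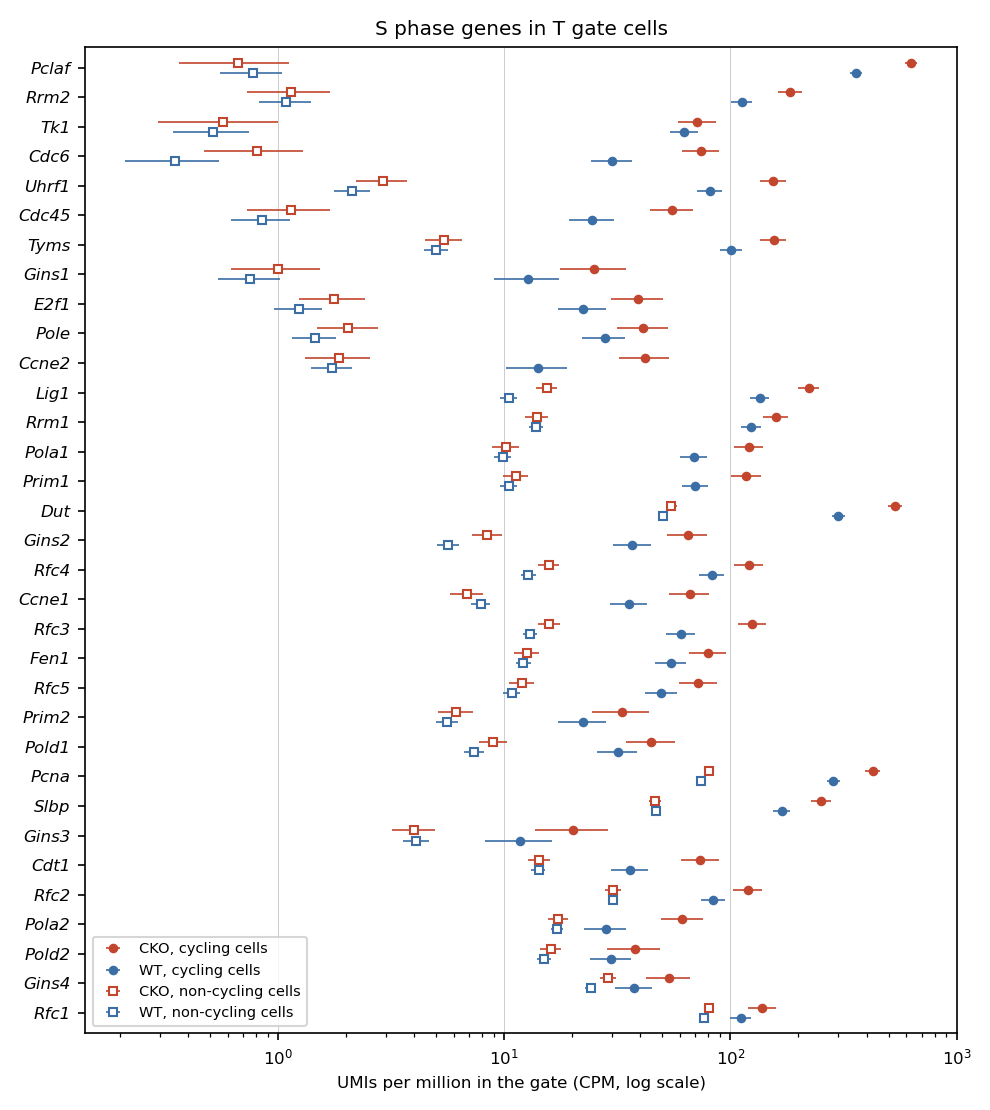
Level of each S phase gene in T gate cells in CPM (log axis), with CKO in red and WT in blue, filled circles for cycling and open squares for non-cycling cells, and exact 95% Poisson bars. Genes run from Pclaf, whose UMIs lay most in cycling cells, to Rfc1, whose lay there least; all 33 filled red points lie right of their blue partners, while most open squares lie together.

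Both licensing factors were called higher in CKO cycling T cells. Cdc6 (11:98907801-98923940, GRCm38), which loads the MCM helicase, had 74.2 CPM in CKO and 30.1 CPM in WT, a ratio of 2.47 (1.86 to 3.29). Cdt1, its partner in loading, had 73.6 CPM in CKO and 35.9 CPM in WT, a ratio of 2.05 (1.56 to 2.69). Among the genes that activate the helicase, 4 of 5 were called. Cdc45, which joins MCM and GINS into the moving helicase, had 55.3 CPM in CKO and 24.5 CPM in WT, and the GINS subunits Gins1, Gins2 and Gins3 had ratios of 1.96, 1.75 and 1.72. The other GINS subunit, Gins4, stood just under the threshold with 53.3 CPM in CKO and 37.6 CPM in WT.

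The genes that copy the strands were higher in CKO by varied amounts. Pcna, the sliding clamp, had 425 CPM in CKO and 285 CPM in WT cycling T cells, a ratio of 1.49 (1.34 to 1.65) that lay just under the threshold. Of the 5 subunits of its loader, Rfc3 alone was called, with 185 UMIs in each library and a ratio of 2.07 (1.68 to 2.55), while the other 4 had ratios between 1.24 (Rfc1) and 1.46 (Rfc5). Of 7 polymerase and primase genes, 3 were called, and all belong to the complex that starts each new strand: Pola2 with a ratio of 2.19 (1.61 to 2.97), Pola1 with 1.75 and Prim1 with 1.68. Their other partner Prim2 had 33.1 CPM in CKO and 22.2 CPM in WT, a ratio of 1.49 (1.01 to 2.18). The catalytic subunits of the polymerases that extend the strands, Pole and Pold1, had ratios of 1.48 and 1.41, and the interval of Pold2 (0.894 to 1.79) held 1. On the lagging strand, Lig1, the ligase that joins the fragments, had 222 CPM in CKO and 135 CPM in WT and was called, while Fen1, the nuclease that trims their ends, had a ratio of 1.46 (1.14 to 1.86).

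Nucleotide supply split between its genes. Dut, which keeps uracil out of DNA, had 789 UMIs in 101 CKO and 918 UMIs in 227 WT cycling T cells, a ratio by CPM of 1.78 (1.61 to 1.95). Rrm2, the regulatory subunit of ribonucleotide reductase that cells make in S phase, had 184 CPM in CKO and 112 CPM in WT, and Tyms, which makes thymidylate, had a ratio of 1.54 (1.29 to 1.84). The larger reductase subunit Rrm1 had a ratio of 1.29, and Tk1, the salvage thymidine kinase, had 71.5 CPM in CKO and 62.4 CPM in WT, the smallest ratio of the 33 at 1.15 (0.895 to 1.46). Beyond the fork, Uhrf1, which carries DNA methylation through replication, was called with a ratio of 1.91 (1.59 to 2.29). Slbp, which binds histone mRNA, had 252 CPM in CKO and 169 CPM in WT, a ratio of 1.49.

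All 3 regulators of the step from G1 into S were called higher in CKO cycling T cells. Ccne2 (4:11191351-11204779, GRCm38), a cyclin that drives S phase entry, had 62 UMIs and 41.8 CPM in CKO and 43 UMIs and 14.0 CPM in WT cycling T cells, a ratio of 2.98 (1.99 to 4.50), the largest of the 33. Its sister Ccne1 had 66.1 CPM in CKO and 35.6 CPM in WT, and the transcription factor E2f1 had 39.1 CPM in CKO and 22.2 CPM in WT. Pclaf, a small protein that binds Pcna at forks, had 628 CPM in CKO and 360 CPM in WT, a ratio of 1.75 (1.60 to 1.91).

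Outside the cycling gate the same genes were close between the libraries. Their sum in non-cycling T cells was 529 CPM (519 to 539) in CKO and 488 CPM (482 to 494) in WT, a ratio of 1.09 (1.06 to 1.11). Of the 33 members, 1 was called higher and 0 lower, beside 7.82% and 4.66% of 12885 genes. The one called was Cdc6, on 17 UMIs in CKO and 19 in WT (0.810 CPM in CKO and 0.350 CPM in WT), with a ratio of 2.32 (1.13 to 4.70). Next below the threshold came Gins2, with 8.43 CPM in CKO and 5.67 CPM in WT, and Lig1, with 15.4 CPM in CKO and 10.5 CPM in WT. Taking cycling and non-cycling T cells together, the sum was 785 CPM in CKO and 606 CPM in WT, a ratio of 1.29 (1.27 to 1.32). There 12 members were called higher and 0 lower, beside 8.53% and 4.51% of 13077 genes, led by Cdc6 (5.65 CPM in CKO and 1.93 CPM in WT), Cdc45 (4.71 CPM in CKO and 2.11 CPM in WT) and Pclaf (42.0 CPM in CKO and 19.9 CPM in WT).

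The members differed in how far they were confined to the cycling gate. Of Pclaf UMIs in T cells, 98.5% in CKO and 96.3% in WT lay in cycling cells, and for Rrm2, Tk1 and Cdc6 these shares were between 82.9% and 91.9%. At the other end stood Rfc1, with 10.8% in CKO and 7.60% in WT, Gins4, with 11.5% in CKO and 8.07% in WT, and Pold2, with 14.2% in CKO and 10.1% in WT, genes that resting T cells also held. Over all 33 members the share was 37.0% (36.3 to 37.7) in CKO and 23.8% (23.4 to 24.3) in WT, while cycling cells held 6.59% of all T cell UMIs in CKO and 5.33% in WT. The share of T cells in the cycling gate was 2.84% (2.32 to 3.44) in CKO and 2.77% (2.43 to 3.15) in WT. With every cell thinned to 2000 UMIs it was 1.22% (0.883 to 1.64) in CKO and 0.896% (0.703 to 1.13) in WT, a ratio of 1.36 (0.910 to 2.01), and at 3000 UMIs 1.65% in CKO and 1.11% in WT, a ratio of 1.48 (1.04 to 2.08). Counting cells by the S phase genes alone, 53 of 3531 CKO T cells and 52 of 8148 WT T cells held UMIs of at least 6 different members after thinning.

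In cycling B cells the S phase genes went the other way. Their summed level there was 2274 CPM (2179 to 2372) in CKO and 3955 CPM (3824 to 4089) in WT, a ratio of 0.575 (0.545 to 0.607). On the log2 scale the ratio was −0.80. Without cells over 20000 UMIs it was −1.55. With a cycling gate of at least 3 UMIs of Mki67 and Top2a it was −0.49, and with at least 5 it was −0.32, where 9 members were called. The gate of 5 and the limit of 20000 UMIs were chosen after seeing the data. At the gate of 2 UMIs, 1 of the 33 members was called higher and 20 lower, beside 20.1% and 12.7% of 7271 genes. The median log2 ratio of the members was −0.70 beside 0.10 over all those genes. Pclaf had 341 CPM in CKO and 811 CPM in WT, Lig1 had 93.1 CPM in CKO and 194 CPM in WT, and Fen1 had 38.1 CPM in CKO and 115 CPM in WT. All 5 nucleotide genes were called lower, among them Rrm2 with 86.7 CPM in CKO and 140 CPM in WT. Cdc45 rested on 12 UMIs in CKO and 34 in WT and had the lowest ratio, 0.325 (0.153 to 0.644). Cdt1 was the one called higher, with 42.3 CPM in CKO and 26.4 CPM in WT, and its interval (0.937 to 2.81) held 1.

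In non-cycling B cells the sum was 706 CPM in CKO and 705 CPM in WT, with an interval of the ratio of 0.977 to 1.03, and 0 of 32 members at the floor were called in either direction, beside 4.75% of 12197 genes higher and 3.76% lower. Over all B cells the sum was 747 CPM in CKO and 916 CPM in WT. There 0 members were called higher and 12 lower, beside 4.51% and 5.47% of 12327 genes. The lowest ratios were those of Pclaf (9.66 CPM in CKO and 53.7 CPM in WT), Cdc6 (0.771 CPM in CKO and 3.42 CPM in WT) and Rrm2 (3.17 CPM in CKO and 10.1 CPM in WT), the members most confined to cycling cells. Rfc1, with 156 CPM in CKO and 164 CPM in WT, and Slbp, with 72.8 CPM in CKO and 77.3 CPM in WT, differed little.

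**Figure D2:**
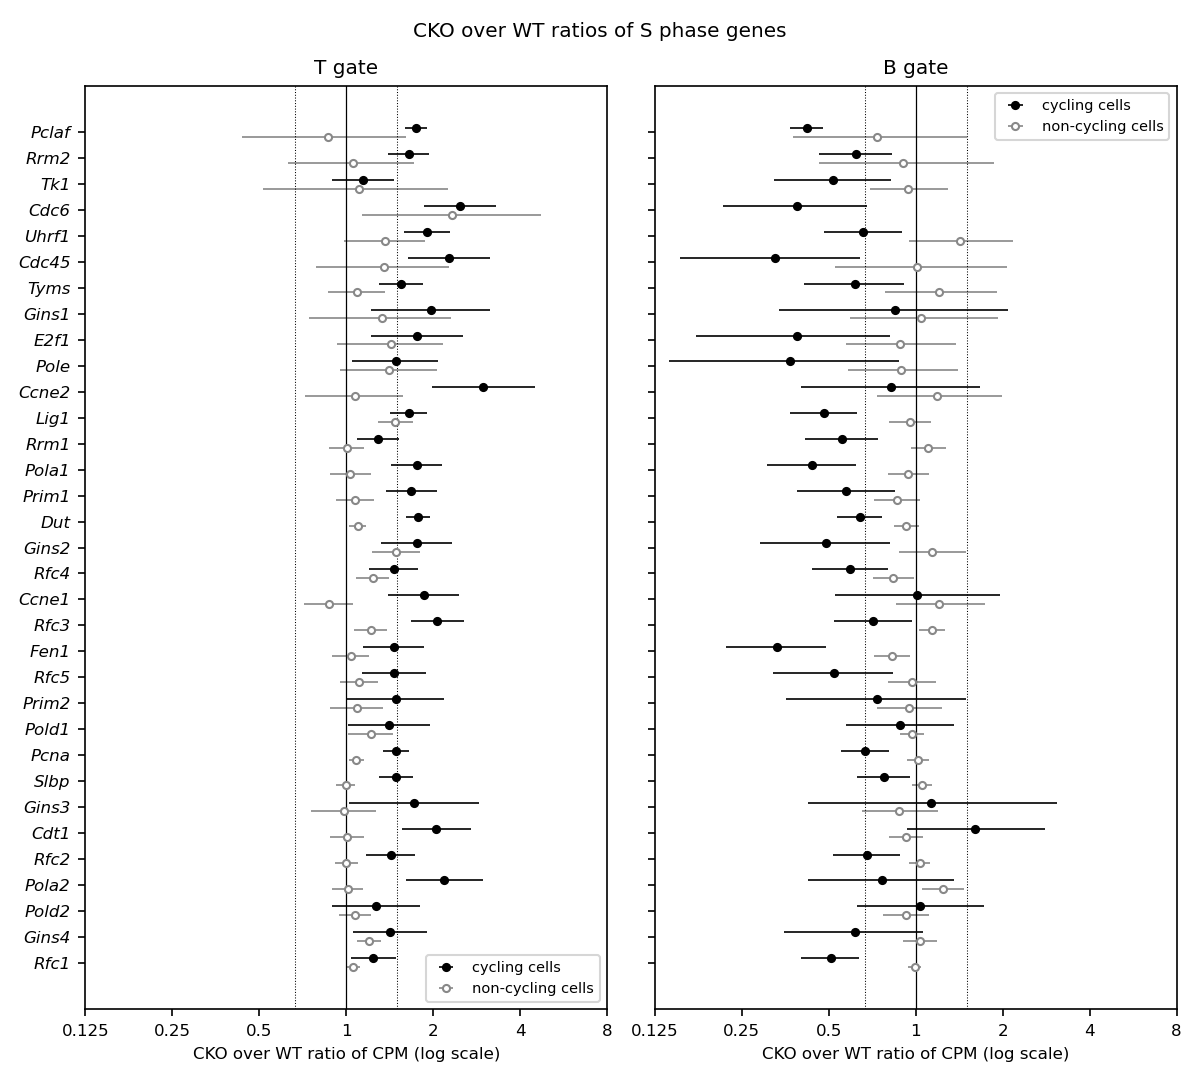
CKO over WT ratio of CPM for each S phase gene (log axis) in T gate cells (left) and B gate cells (right), filled for cycling and open for non-cycling cells, with exact 95% bars; the solid line marks 1 and the dotted lines 1.5-fold in each direction. Cycling T cells lie right of 1 for all 33 genes and cycling B cells left of 1 for most, while non-cycling cells lie about 1; Cdc6 in non-cycling B cells, with 10 UMIs in all, is not drawn.

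Fewer B cells were in the cycling gate in CKO: 1.15% in CKO and 1.98% in WT, a ratio of 0.580 (0.411 to 0.825). After thinning to 2000 UMIs the shares were 0.260% (0.159 to 0.401) in CKO and 1.15% (0.789 to 1.62) in WT. At least 6 different members were found in 21 of 7703 CKO B cells (0.273%) and 24 of 2777 WT B cells (0.864%). The cycling B cells also differed in depth, with a median of 7294 UMIs in CKO and 14317 in WT. Germinal centre markers moved with them: the 7 genes summed to 135 CPM in CKO and 599 CPM in WT cycling B cells, with Gcsam at 0 in CKO. The 5 plasma cell markers summed to 5914 CPM in CKO and 9439 CPM in WT, and the 6 B cell markers to 31296 CPM in CKO and 58986 CPM in WT. Their part in the difference of the S phase genes was not tested.

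The level of the S phase genes varied with how far a cell was past the cycling gate. Among cycling T cells with exactly 2 UMIs of Mki67 and Top2a, the S phase sum was 1330 CPM in 39 CKO cells and 725 CPM in 112 WT cells. With 3 to 4 such UMIs it was 2989 CPM in 13 CKO cells and 1010 CPM in 43 WT cells. With 10 or more it was 6039 CPM (5872 to 6209) in 38 CKO cells and 4965 CPM (4841 to 5092) in 52 WT cells, a ratio of 1.22 (1.17 to 1.26). T cells with 10 or more made up 37.6% of the cycling gate in CKO and 22.9% in WT. In the B gate the order was turned round: 14.4% of CKO and 53.6% of WT cycling cells had 10 or more, and their S phase sums were 4747 CPM in CKO and 5227 CPM in WT, a ratio of 0.908 (0.853 to 0.966). At exactly 2 UMIs the B gate held 55 CKO cells with 904 CPM and 14 WT cells with 707 CPM.

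**Figure D3:**
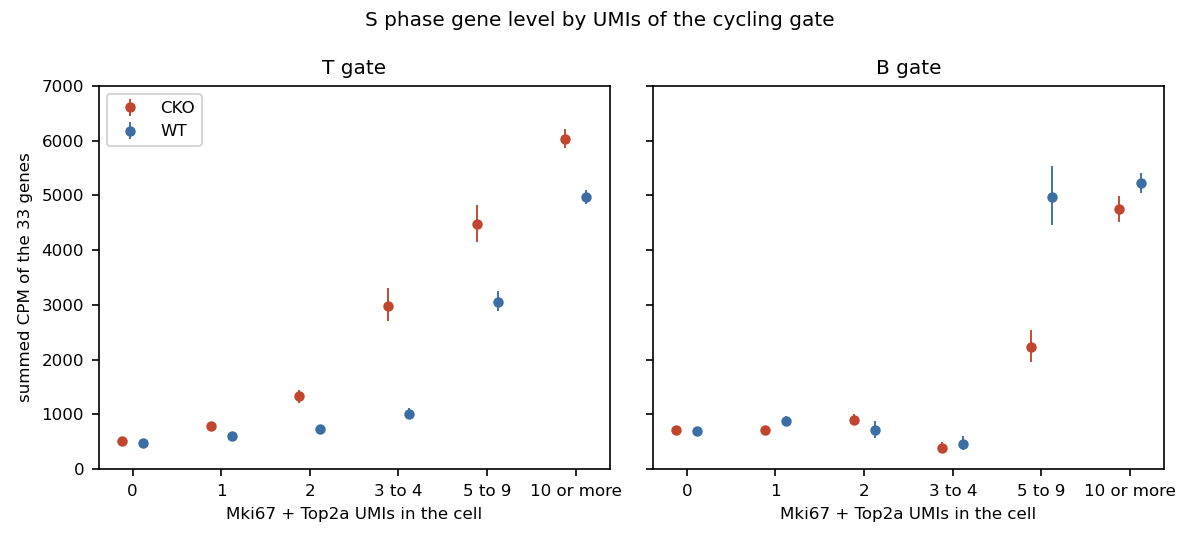
Summed level of the 33 S phase genes (CPM, linear axis) in cells grouped by their UMIs of Mki67 and Top2a, for T gate cells (left) and B gate cells (right), CKO red and WT blue, with exact 95% Poisson bars. In T cells CKO lies above WT in every class, most at 3 to 4 UMIs with 2989 CPM in CKO and 1010 CPM in WT; in B cells CKO lies below WT at 1 UMI, at 3 to 4, where the bars overlap, at 5 to 9 and at 10 or more.

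Within the T gate the same direction was seen in each split by co-receptor. In CD4 T cells (Cd4 without Cd8b1, Foxp3 or Trdc), 21 CKO and 71 WT cells were cycling, with S phase sums of 5089 CPM in CKO and 3127 CPM in WT, a ratio of 1.63 (1.53 to 1.73). Cells with 10 or more UMIs of Mki67 and Top2a held most S phase UMIs. They were 6 of 21 cells with 1075 of 1527 UMIs in CKO, and 15 of 71 cells with 2334 of 2924 UMIs in WT. The ratio was 1.22 (1.14 to 1.31) in these cells, 1.15 (0.808 to 1.59) in cells with exactly 2 such UMIs, and larger between. In cycling CD4 T cells 23 of 32 members were called higher and 1 lower, beside 13.3% and 16.5% of 6337 genes. Ccne2 led with 70.0 CPM in CKO and 15.0 CPM in WT, followed by Pola2 with 93.3 CPM in CKO and 26.7 CPM in WT. The one called lower was Prim2, on 5 UMIs in CKO and 29 in WT, with an interval (0.162 to 1.40) that held 1. In non-cycling CD4 T cells the sums were 482 CPM in CKO and 467 CPM in WT, and 2 of 29 members were called higher and 2 lower, beside 4.99% and 5.37% of 11138 genes. Over all CD4 T cells the sums were 650 CPM in CKO and 602 CPM in WT, and 5 of the 33 members were called higher and 0 lower, beside 4.96% and 5.53% of 11341 genes: Gins1, Ccne2, Cdc6, E2f1 and Uhrf1. The others included Rrm2, with 7.43 CPM in CKO and 9.29 CPM in WT.

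In CD8 T cells (Cd8b1 without Cd4, Foxp3 or Trdc), 27 CKO and 81 WT cells were cycling, with sums of 4130 CPM in CKO and 2860 CPM in WT, a ratio of 1.44 (1.35 to 1.54). Of the 33 members, 15 were called higher and 0 lower, beside 14.6% and 13.2% of 6635 genes. Among these 15, the intervals of Gins1, Gins2, Gins3, Gins4, Cdc45, Prim2 and Pold2 held 1. Ccne2 led here too, with 59.1 CPM in CKO and 15.7 CPM in WT, while Uhrf1 had 85.4 CPM in CKO and 87.9 CPM in WT. In non-cycling CD8 T cells the sums were 586 CPM in CKO and 505 CPM in WT, and 6 of 30 members were called higher and 0 lower, beside 8.33% and 6.71% of 11063 genes. Among these 6, Lig1 had a ratio of 1.92 (1.40 to 2.60), Gins2 1.99 (1.29 to 3.00) and Uhrf1 1.86 (1.02 to 3.20). The others, Gins1, E2f1 and Ccne2, rested on 4, 8 and 8 UMIs in CKO and had intervals that held 1. The cycling gate held 5.83% of CD8 T cells in CKO and 2.72% in WT, and after thinning 2.39% (1.20 to 4.23) in CKO and 1.04% (0.710 to 1.48) in WT. It held 1.55% of CD4 T cells in CKO and 2.48% in WT, a ratio of 0.625 (0.364 to 1.03), and after thinning 0.593% in CKO and 0.772% in WT. Of Foxp3 T cells it held 2.79% in CKO and 10.9% in WT, a ratio of 0.256 (0.0956 to 0.589), and after thinning 1.61% in CKO and 2.65% in WT, a ratio of 0.606 (0.134 to 2.26). Over all CD8 T cells the sums were 919 CPM in CKO and 623 CPM in WT, a ratio of 1.48 (1.42 to 1.54). There 19 members were called higher and 0 lower, beside 9.52% and 6.16% of 11259 genes. Cdc6 had the largest ratio, with 8.35 CPM in CKO and 1.92 CPM in WT, and Pclaf had 57.5 CPM in CKO and 21.0 CPM in WT.

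Trdc and Foxp3 cells were few in the cycling gate of one library each. Of cycling T cells, 31.7% in CKO and 2.20% in WT carried Trdc, the constant segment of the gamma delta receptor, and the 4 gamma delta markers summed to 219 CPM in CKO and 26.1 CPM in WT cycling T cells. In Trdc T cells 32 CKO and 5 WT cells were cycling, with S phase sums of 3391 CPM in CKO and 2595 CPM in WT, a ratio of 1.31 (1.13 to 1.52), and 8 of 23 members were called higher and 2 lower, beside 25.8% and 14.1% of 4017 genes. The members called lower were Rfc1 (98.0 CPM in CKO and 200 CPM in WT) and Rfc4 (98.0 CPM in CKO and 160 CPM in WT). In cycling Trdc T cells the 3 natural killer cell markers summed to 173 CPM (81 UMIs) in CKO and were at 0 in WT. The 4 gamma delta markers there summed to 644 CPM in CKO and 639 CPM in WT. The part of such cells in the S phase difference was not tested. In Foxp3 T cells 7 CKO and 33 WT cells were cycling, with medians of 25916 UMIs in CKO and 12289 in WT and S phase sums of 6245 CPM in CKO and 2280 CPM in WT. Of these cells, 4 in CKO and 8 in WT were over 20000 UMIs, and the deepest CKO cell had 67799 of the 215366 UMIs of the 7. The CKO sum and the calls thus rested on few cells. In cycling Foxp3 T cells 26 of 29 members were called higher and 0 lower, beside 21.7% and 28.2% of 4765 genes, and Ccne1 had 176 CPM in CKO and 23.6 CPM in WT. Markers of T cell subsets moved too in these cells: the 4 regulatory T markers summed to 283 CPM in CKO and 1428 CPM in WT, Cd4 stood at 37.1 CPM in CKO and 163 CPM in WT, and the 2 CD8 genes at 320 CPM in CKO and 110 CPM in WT. Their part in the difference was not tested. Non-cycling Foxp3 T cells had 526 CPM in CKO and 593 CPM in WT, and 0 of 21 members were called higher and 4 lower, beside 6.62% and 10.9% of 8460 genes. Tyms was one of the 4, on 2 UMIs in CKO and 18 in WT, with a ratio of 0.156 (0.0176 to 0.652).

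**Figure D4:**
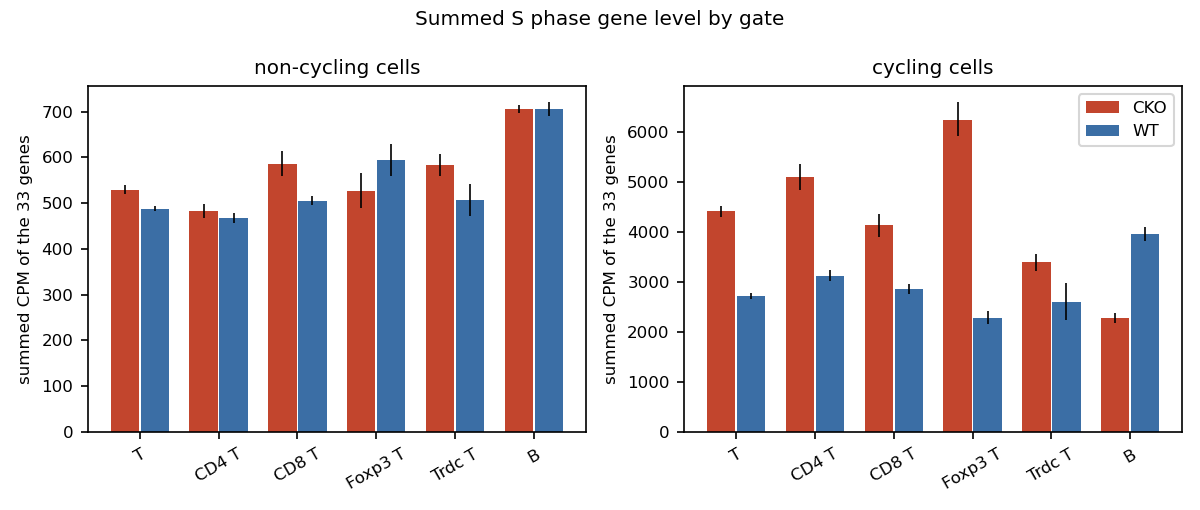
Summed level of the 33 S phase genes (CPM, linear axis from 0) in non-cycling (left) and cycling (right) cells of each gate, CKO red and WT blue, with exact 95% Poisson bars. The panels have separate axes, and non-cycling sums lie between 467 and 706 CPM. Cycling sums are higher in CKO in the T gate and the splits shown and lower in CKO in the B gate.

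In cycling cells the S phase genes were set beside genes of G2 and mitosis, taken without Mki67 and Top2a. No phase was assigned to a cell, and cells entered only through their UMIs of Mki67 and Top2a. S phase UMIs outnumbered G2 and mitosis UMIs in 83.2% of CKO and 78.0% of WT cycling T cells. This share does not tell the phases apart, because T cells with 0 UMIs of Mki67 and Top2a also held more S phase UMIs. Those cells had 519 CPM of S phase and 84.8 CPM of G2 and mitosis genes in CKO. In WT they had 480 CPM and 98.6 CPM. Cycling T cells held 1.60 S phase UMIs per G2 and mitosis UMI in CKO and 1.19 in WT, a ratio of 1.35 (1.30 to 1.39). In CD4 T cells the figures were 2.62 in CKO and 1.19 in WT, and in CD8 T cells 2.18 in CKO and 1.15 in WT. In Trdc T cells they were 0.847 in CKO and 1.95 in WT, on 32 CKO and 5 WT cells. T cells in none of the CD4, CD8, Trdc and Foxp3 splits held 4.15 in CKO and 1.16 in WT, on 14 CKO and 37 WT cells. Cycling B cells held 1.35 in CKO and 1.25 in WT, a ratio of 1.08 (1.02 to 1.14), so both gene groups were lower there by similar amounts. Per cell, the median S phase level was 28.6 UMIs per 10000 in CKO and 6.83 in WT cycling T cells, and 7.03 in CKO and 28.3 in WT cycling B cells. The highest cycling T cell stood at 114 per 10000 in CKO and 106 in WT, closer together than the medians.

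**Figure D5:**
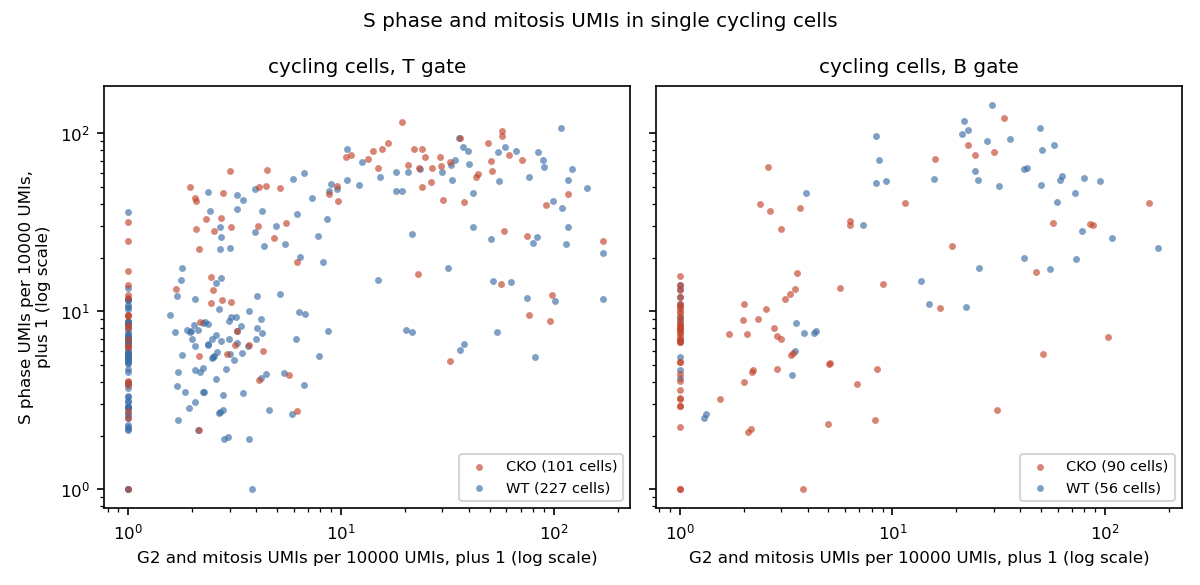
S phase UMIs against G2 and mitosis UMIs (without Mki67 and Top2a), each per 10000 UMIs of the cell plus 1 (log axes), for single cycling cells of the T gate (left) and B gate (right), CKO red and WT blue. In the T gate the CKO cells lie more in the upper part (median 28.6 per 10000 in CKO against 6.83 in WT), and in the B gate the WT cells do (median 7.03 in CKO against 28.3 in WT).

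Of the other lists of the replication pathway, those of origins and of forks had more genes called higher in cycling T cells than the 10.9% over all genes there, of which 10.1% were lower. Of 19 MCM and origin genes, 12 were called higher and 0 lower, led by Recql4 (10.8 CPM in CKO and 2.94 CPM in WT) and Orc1 (20.9 CPM in CKO and 8.82 CPM in WT), a subunit of the origin recognition complex. Of 24 fork and chromatin assembly genes, 15 were called higher and 0 lower, among them the helicase and nuclease Dna2 (22.3 CPM in CKO and 7.19 CPM in WT) and Hells (254 CPM in CKO and 119 CPM in WT), a chromatin remodeller. Of 17 further nucleotide supply genes, 2 were called higher, among them Shmt2, and 1 lower, the mitochondrial thymidine kinase Tk2, shares near those over all genes. The G2 and mitosis list had 4 of 30 called higher and 0 lower. In these counts it included Mki67 and Top2a, whose UMIs set the cycling gate. In cycling CD4 T cells it had 1 of 30 higher and 12 lower, where 13.3% of all genes were higher and 16.5% lower and 23 of 32 S phase genes were higher. In cycling CD8 T cells it had 0 of 29 higher and 11 lower, where 14.6% of all genes were higher and 13.2% lower and 15 of 33 S phase genes were higher.

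Among 20 genes of cell cycle entry, 9 were called higher and 1 lower in cycling T cells, beside the 10.9% and 10.1% over all genes. Cdkn1a, the p53 target that inhibits cyclin-dependent kinases, stood apart, with 59.4 CPM in CKO and 2.94 CPM in WT on 88 UMIs in CKO and 9 in WT, a ratio of 20.2 (10.2 to 45.6). E2f7, a repressor of E2F targets, had 25.6 CPM in CKO and 7.84 CPM in WT, while Cdkn1b, another kinase inhibitor, had 105 CPM in CKO and 156 CPM in WT. Of the other RPA subunits, Rpa2 had 89.8 CPM in CKO and 49.7 CPM in WT cycling T cells and Rpa3 had 109 CPM in CKO and 82.3 CPM in WT, while Rpa1 itself had 54.7 CPM in CKO and 61.8 CPM in WT, a ratio of 0.885 (0.674 to 1.15). In cycling B cells 24 of 30 G2 and mitosis genes, 11 of 23 fork and chromatin genes and 6 of 16 MCM and origin genes were called lower. Called higher were 0, 1 and 2 genes of these lists, beside 12.7% of all genes lower and 20.1% higher. The G2 and mitosis count again included the gate genes Mki67 and Top2a.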

How the data were processed

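The deposited values are whole UMI counts per gene and barcode for 1 CKO and 1 WT library of 10x 3′ v3.1 chemistry, per the labels' protocols. Per the file headers the matrices were written by Cell Ranger 6.0.2. Seurat 4.0.3, Cell Ranger 5.0.0 and mm10 appear in the submitters' processing notes; the sources used here do not give the annotation. Gene positions come from GENCODE on GRCm38.

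A barcode was kept where it had 500 or more UMIs, 200 or more genes and no more than 10% of UMIs from mitochondrial genes. T cells were split by Foxp3, then Trdc, then Cd4 against Cd8b1. The rest, 870 CKO and 1808 WT cells with 14 and 37 of them cycling, fell in none of these splits. No doublet caller was used beyond the gates. The T gate left out cells with both Cd79a and at least 2 UMIs of Cd3d, Cd3e and Cd3g (1499 in CKO, 1255 in WT). The B gate left out cells with Cd3e, but not those with Cd3d or Cd3g. Leaving out the highest Scrublet scores (Scanpy 1.11.5) was an alternative. UMIs were summed per gate and divided by the gate total (CPM). A UMI counts 1 molecule whatever the transcript length, so no length scaling was made. CPM have exact Poisson, shares exact binomial and ratios exact conditional binomial intervals at 95% (SciPy 1.17.1), for counting error only. With 1 library per genotype there was no test; a gene was called at 1.5-fold with at least 20 UMIs over both libraries. A level of 0 was set against a floor of 3 counts. Shares of cells were also taken after thinning each cell to 2000 UMIs, leaving out shallower cells (24 CKO and 41 WT T cells, 127 CKO and 48 WT B cells). The intervals, the direction of changes and the thinning were checked on simulated counts. The simulation held counting error only, so it does not bear on the gates or on variation between cells or libraries. All members could be named, and from each of the 6 other lists the 3 highest and 3 lowest ratios at the floor in a gate. Members and lists were chosen with earlier results of these data known. Some genes of these lists are not reported here by name.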

Additional observations from a re-analysis of the deposited data

Results flagged for a closer look

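T and B gates moved in opposite directions. Over all cells, the log2 ratio of CKO over WT of the summed S phase genes was 0.37 in T cells and −0.29 in B cells. Over cycling cells it was 0.70 in T cells and −0.80 in B cells. The same 1 CKO and 1 WT library gave both gates, and the difference between the gates was not tested.

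The balance of S phase against G2 and mitosis UMIs in cycling cells also went opposite ways between T splits. The CKO over WT ratio of this balance was 2.21 (2.08 to 2.35) in CD4 T cells, on 21 CKO and 71 WT cells, and 0.434 (0.374 to 0.506) in Trdc T cells, on 32 CKO and 5 WT cells. This difference was not tested either.

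Cells in neither gate were used in no comparison above. Of them 96 CKO and 84 WT cells were cycling, and their S phase sum was 3529 CPM (3436 to 3625) in CKO and 2280 CPM (2204 to 2357) in WT. Ccne2 had 29.3 CPM in CKO and 8.71 CPM in WT in these cells, and Pclaf 507 CPM in CKO and 346 CPM in WT. Scrublet marked 37.5% of the CKO and 34.5% of the WT cycling cells of neither gate, and their part in the difference was not tested.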

How the results depend on the processing

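No paired analysis was possible because each genotype had 1 library. The direction of the summed level in cycling cells, higher in CKO in T, CD4 T and CD8 T cells and lower in CKO in B cells, held under every alternative run. Values are log2 CKO over WT ratios of the S phase sum unless called counts, and the cause of each move was not tested. Sums after thinning kept the cycling and non-cycling cells as gated before thinning, while thinned cycling shares were gated after it. A stricter cycling gate of 5 UMIs, leaving out cells over 20000 UMIs and leaving out shared barcodes were chosen after seeing the data.

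In cycling T cells (0.70 and 19 members called) the sum was 0.96 with a gate of 1 UMI, 0.51 with 3 and 0.35 with 5, 0.63 over a total without ribosomal protein and mitochondrial genes, 0.85 after thinning to 2000 UMIs, 0.80 with the make-up of T splits held equal and 1.09 without cells over 20000 UMIs. The members called were 31 with a gate of 1, 7 with 5 and 30 without cells over 20000 UMIs. In all T cells (0.37 and 12 members) it was 0.30 over the reduced total, 0.29 by median of ratios and 0.20 after thinning (7 members called). It was 0.33 with the make-up of both cycling cells and T splits held equal, and 0.31 without cells over 20000 UMIs. In non-cycling T cells (0.12 and 1 member) it was 0.17 with a gate of 5, 0.042 over the reduced total and 0.046 by median of ratios. There the members called were 3 with a gate of 1, 5 with 3 and 9 with 5. With the make-up of T splits held equal 5 were called, and 0 at a floor of 50 UMIs.

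In cycling B cells (−0.80 and 21 members) the sum was −1.15 with a gate of 1 UMI, −0.49 with 3, −0.32 with 5 (9 members called), −0.90 by median of ratios, −1.29 after thinning (8 members called, of 12 at the floor) and −1.55 without cells over 20000 UMIs. In all B cells (−0.29 and 12 members) it was −0.10 after thinning (7 called), −0.11 with the make-up held equal (4 called) and −0.21 without cells over 20000 UMIs (6 called). In non-cycling B cells (0 called) 1 member was called with a gate of 1 or 5, at a floor of 10 UMIs or of 1 UMI in each library, and 2 after thinning. Cdt1 in cycling B cells was no longer higher, at −0.0032 with a gate of 1 and −0.17 without cells over 20000 UMIs, and Tyms in all B cells was at 0.19 after thinning.

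In cycling CD4 T cells (0.70) the sum was 0.997 with a gate of 1, 0.45 with 3, 0.29 with 5, 0.97 after thinning and 1.09 without cells over 20000 UMIs. In all CD4 T cells (0.11) it was 0.039 after thinning, 0.24 with the make-up held equal and 0.060 without cells over 20000 UMIs. In cycling CD8 T cells (0.53) it was 0.70 without the highest Scrublet scores, 0.86 with a gate of 1, 0.72 after thinning and 1.04 without cells over 20000 UMIs. In all CD8 T cells (0.56) it was 0.47 over the reduced total, 0.46 by median of ratios, 0.49 after thinning, 0.30 with the make-up held equal and 0.71 without cells over 20000 UMIs. In non-cycling CD8 T cells (0.21) it was 0.31 with a gate of 5, and 0.12 both over the reduced total and by median of ratios.

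The log2 ratio of the thinned cycling share was 1.13 (0.11 to 2.14) with a gate of 5 in T cells, beside 0.44 with 2. In CD4 T cells it was −1.92 (−7.39 to 0.98) beside −0.38, and in CD8 T cells 2.47 (0.62 to 4.26) beside 1.19. In Foxp3 T cells it turned direction, at 1.28 (−2.99 to 7.16) beside −0.72 (−2.90 to 1.18), and both intervals held 0. In B cells (−2.15) it was −0.76 with a gate of 1, −0.79 as deposited and −1.29 at 3000 UMIs, and that of the share of B cells with 4 or more members was −0.32. Depth limits the rarer members: in cycling Trdc T cells 23 of the 33 reached the floor of 20 UMIs.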

Other observations

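In non-cycling T cells single genes of the lists beside the S phase genes, named from their highest and lowest ratios, differed. The S phase sum there was 529 CPM in CKO and 488 CPM in WT. Single S phase genes differed too, with ratios of 2.32 for Cdc6, 1.49 for Gins2 and 1.48 for Lig1. Over all 12885 genes there, 7.82% were called higher and 4.66% lower. Cdkn1a had 2.29 CPM in CKO and 0.681 CPM in WT, a ratio of 3.36 (2.14 to 5.30), and in non-cycling B cells it had 3.02 CPM in CKO and 0.956 CPM in WT. Chaf1a, which places histones on new DNA, had a ratio of 1.85 (1.32 to 2.57) in T cells, and Mcm5, a helicase subunit, 18.9 CPM in CKO and 12.5 CPM in WT. Samhd1, which breaks down deoxynucleotides, had 412 CPM in CKO and 296 CPM in WT, under the 1.5-fold threshold. Kif23, a motor of cell division, had 6.33 CPM in CKO and 14.5 CPM in WT.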
